A study of Saccharomyces cerevisiae with 55 samples.

Results

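The genes described here encode the proteins of the yeast mitochondrial ribosome. They were taken by name, as every probe whose gene symbol starts with MRPL, MRPS, RSM or MRP followed by a digit, which gave 57 members among 6249 genes or probes on the array. Of the 57 members, 33 belong to the large subunit and 22 to the small subunit. The remaining 2 members are taken in by their names but are not structural ribosomal proteins: MRP8, first listed as ribosomal from its sequence, whose role is not established, and RSM22, a methyltransferase-like protein linked to the small subunit. Each member had 1 probe, 53 of the 57 had a value on all 54 arrays that could be assigned to a comparison, and 51 arrays held all 57 members. Member values per array numbered 53 to 57, against 5216 to 6206 values over all genes.

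The mitochondrial ribosome translates the few messenger RNAs of the mitochondrial genome, which encode core subunits of the respiratory chain and ATP synthase. In Saccharomyces cerevisiae nearly all of its proteins are encoded in the nucleus, made in the cytosol and imported. Some descend from bacterial ribosomal proteins, while others have no bacterial counterpart and occur in mitochondrial ribosomes alone. Among the members 33 have a bacterial counterpart and 22 are of the mitochondrial kind.

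The series asked how inositol pyrophosphate synthesis and the Rpd3 histone deacetylase complex act in the environmental stress response, the broad change of transcription that yeast shows under many stresses. All strains were MATa in the W303 background, and the wild type was ACY044. Mutants were kcs1, vip1 and the double mutant kcs1vip1, lacking inositol pyrophosphate kinases. Others were arg82 and ipk1, lacking earlier inositol phosphate kinases, and rpd3 and snt1, lacking histone deacetylase complex subunits. Vip1D487A and Rpd3ibs are alleles that the labels name without describing. Cells were in mid-log growth in YEPD, or had 20 min of 0.375 M KCl, of 0.4 mM H2O2, of heat at 42 °C or of 200 nM rapamycin. Each 2-colour array gave 1 log2 ratio per gene. The stressed wild type was set against wild type in log growth, and each mutant against wild type in the same condition. Rapamycin with KCl was set against KCl alone, both in kcs1vip1, and 1 array each set kcs1vip1 in KCl and in H2O2 against kcs1vip1 in log growth. The 54 arrays formed 27 groups, of which 7 held 3 arrays, 13 held 2 and 7 held 1. The labels do not say whether arrays of a group came from separate cultures, so p-values measure the spread between these arrays, which may be technical.

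A deleted gene should give a strongly negative ratio against wild type, and it did where it was measured in kcs1, vip1, kcs1vip1, arg82 and snt1 arrays (-4.17 to -9.33), except as follows. The array labelled kcs1 log growth 2 had a ratio of -0.30 for KCS1 and -2.87 for IPK1, and correlated with the other kcs1 log growth array at r = 0.14 over genes. The arrays labelled ipk1 log growth 2 and ipk1 KCl 2 had no KCS1 value and correlated with the other ipk1 arrays of their condition at 0.09 to 0.35, against 0.78 for the other ipk1 KCl pair. IPK1 had no value on any ipk1 array, the 2 in doubt included, and RPD3 had none on either rpd3 array. Both genes had a value on every other array, so their absence followed those labels, though no ratio could be read. The array labelled kcs1vip1 heat had a VIP1 ratio of -0.01 and correlated with the wild type heat array at 0.77. The 2 arrays labelled kcs1vip1 H2O2 against wild type H2O2 had no VIP1 or KCS1 value and correlated at 0.67 and 0.60 with the array of kcs1vip1 H2O2 against kcs1vip1 log growth. LEU2, a common marker gene in strain construction, gave 3.19 and 1.57 on them and 1.47 on the heat array. On the other kcs1vip1 arrays that set it against wild type it gave -3.97 to -4.41. On the ipk1 arrays in doubt LEU2 gave -5.12 and -3.93, against -4.49, -3.83 and -3.76 on the other ipk1 arrays. The snt1 arrays had like values (-3.31 to -5.01), so LEU2 does not single out ipk1. The Vip1D487A replicates, of which the second is dye-swapped in both conditions, correlated at 0.02 in log growth and 0.15 in KCl. The dye-swapped Vip1D487A arrays were also deposited with more decimals than most. Counts and medians of the groups that hold these 8 arrays are given with them and, where a value remains, without them. The 8 arrays also enter the spread of each gene that all tests share. Counts of calls in the other groups are given with that shared spread only.

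**Figure D1:**
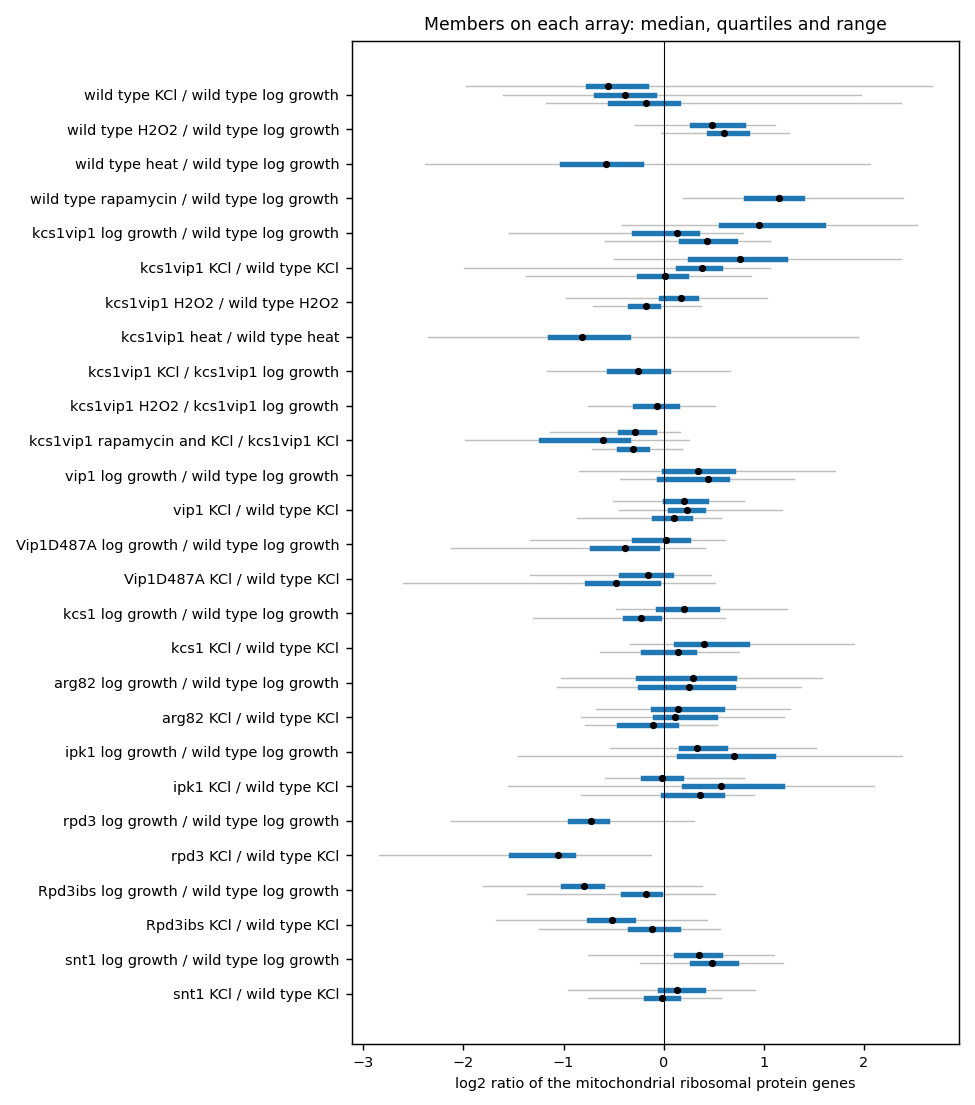
Log2 ratios of the 57 members on each of the 54 assigned arrays, grouped by comparison down the page. Dots are the median over the members, thick bars the range between the quartiles and thin lines the lowest to the highest member. Medians lay between -1.06 (rpd3 in KCl) and 1.15 (wild type with rapamycin).

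In wild type most members had lower values after KCl, but their share of calls was near or below that of all genes. After KCl 21 members fell and 3 rose at an adjusted p under 0.05 (limma, Benjamini-Hochberg over all genes tested), and 33 did not pass. KCl changed much of the transcriptome: 60.9% of 5863 genes passed, 29.6% up and 31.3% down, against 42.1% of the members, 5.26% up and 36.8% down. The median log2 ratio of KCl over log growth was -0.37 over the members and -0.02 over all genes tested. Negative means were found for 45 of 57 members. In the large subunit 14 of 33 members fell and 2 rose (median -0.40), and in the small subunit 6 of 22 fell and 0 rose (median -0.27).

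The lowest member was MRPL37, a large subunit protein of the mitochondrial kind, with log2 ratios of -1.97, -1.60 and -1.10 on the KCl arrays and a mean of -1.56 ± 0.32 (SE, adjusted p = 8.49e-05). RSM26, a small subunit protein of the mitochondrial kind, gave -1.09, -1.22 and -1.18 (mean -1.16 ± 0.18, adjusted p = 1.49e-06). MRPL20, in the large subunit, gave -1.66, -0.80 and -0.92 (mean -1.13 ± 0.24, adjusted p = 0.000107). All 3 were negative on every KCl array, with RSM26 the tightest of them. MRPS28, the mitochondrial counterpart of a bacterial small subunit protein, gave -1.07, -0.71 and -1.0 (mean -0.93, adjusted p = 3.47e-05). A further 6 large subunit members followed with means of -0.70 to -0.76: MRPL7, MRPL39, MRPL19, MRPL13, MRPL6 and MRPL35.

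The 3 members that rose were MRP8, MRPL16 and MRPL28. MRP8 gave 2.68, 1.97 and 2.37 (mean 2.34 ± 0.32, adjusted p = 1.26e-07), far above every structural member. MRPL16, a large subunit protein with a bacterial counterpart, gave 0.22, 0.66 and 0.83 (mean 0.57 ± 0.24, adjusted p = 0.0394). MRPL28, a large subunit protein of the mitochondrial kind, gave 0.86, 0.11 and 0.65 (mean 0.54 ± 0.22, adjusted p = 0.036). All arrays were positive for each of these genes, but for both MRPL genes 1 array lay close to 0. The member median on the KCl arrays was -0.56, -0.39 and -0.18. The median over 130 cytosolic ribosomal proteins moved with it across the arrays (-1.425, -0.29 and 0.06), and its part in the result was not tested. Scaling all arrays to the same spread left 6 of the 24 calls (1 up, 5 down), and leaving out KCl array 1, the dye-swapped one, left 16.

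Oxidative stress moved the members the other way. After H2O2 21 members rose and 0 fell, among 5735 genes of which 43.4% passed, 22.0% up and 21.4% down. The members' share was 36.8%. The median over the members was 0.525, against 0.01 over all genes tested, and 54 of 57 means were positive. In the large subunit 13 of 33 members rose and in the small subunit 7 of 22, and the other call was MRP8.

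MRPL38, a large subunit protein with a bacterial counterpart, was highest with 1.11 and 1.25 on the H2O2 arrays (mean 1.18 ± 0.34 SE, adjusted p = 0.00535). MRPL25, of the mitochondrial kind, gave 1.02 and 1.25 (mean 1.135 ± 0.29, adjusted p = 0.00205). MRPL28 gave 0.93 and 1.10, and so rose in both stresses. MRP8 gave 1.09 and 0.94 (adjusted p = 0.0349). RSM25, a small subunit protein of the mitochondrial kind, gave 0.93 and 1.06 (mean 0.995 ± 0.25, adjusted p = 0.00159). Both arrays of each of these genes were of like size. Of the 3 KCl-lowest members none passed in H2O2: MRPL37 gave 0.36 and 0.47, RSM26 -0.29 and 0.23, and MRPL20 0.07 and 0.33. With 1 of the 2 arrays left out, 5 members (without H2O2 array 1) or 2 members (without H2O2 array 2) remained above the threshold, with the lone array assumed to vary like the others. Scaling the arrays to the same spread gave 5 calls.

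The difference between the stresses was tested directly, as the H2O2 ratio minus the KCl ratio in wild type. It was positive for 56 of 57 members, with a median of 0.86 against 0.06 over all genes tested. Of the members 29 were higher in H2O2 than in KCl and 1 was lower, where 32.8% of 5699 genes passed, 18.0% up and 14.8% down. Calls covered 18 of 33 large subunit members and 10 of 22 small subunit members, all higher in H2O2, and the remaining higher call was RSM22. For 47 members both H2O2 arrays lay above all 3 KCl arrays, as 31.7% of the 5549 genes on all 5 arrays did. For 1 member, MRP8, both H2O2 arrays lay below all KCl arrays, as for 27.0% of genes. The 2 comparisons share wild type log growth as the condition both were set against.

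The largest differences were those of MRPL37 (1.97 ± 0.50 SE, adjusted p = 0.00276), MRPS28 (1.49 ± 0.28, adjusted p = 0.000109) and MRPL25 (1.405 ± 0.38, adjusted p = 0.00412). MRPS28 gave 0.39 and 0.73 in H2O2, and passed in both stresses with opposite signs. So did MRPL8, MRPL13, MRPL40 and RSM7. MRPL13, of the mitochondrial kind, gave 0.48 and 0.58 in H2O2, against -0.92, -0.56 and -0.64 in KCl. In all 42 members had a negative mean in KCl and a positive one in H2O2, 12 were positive in both and 3 negative in both. MRP8 stood apart with a difference of -1.325 ± 0.50 (adjusted p = 0.0419). The count fell to 3, all higher in H2O2, when arrays were scaled to the same spread, and to 10 without H2O2 array 2.

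**Figure D2:**
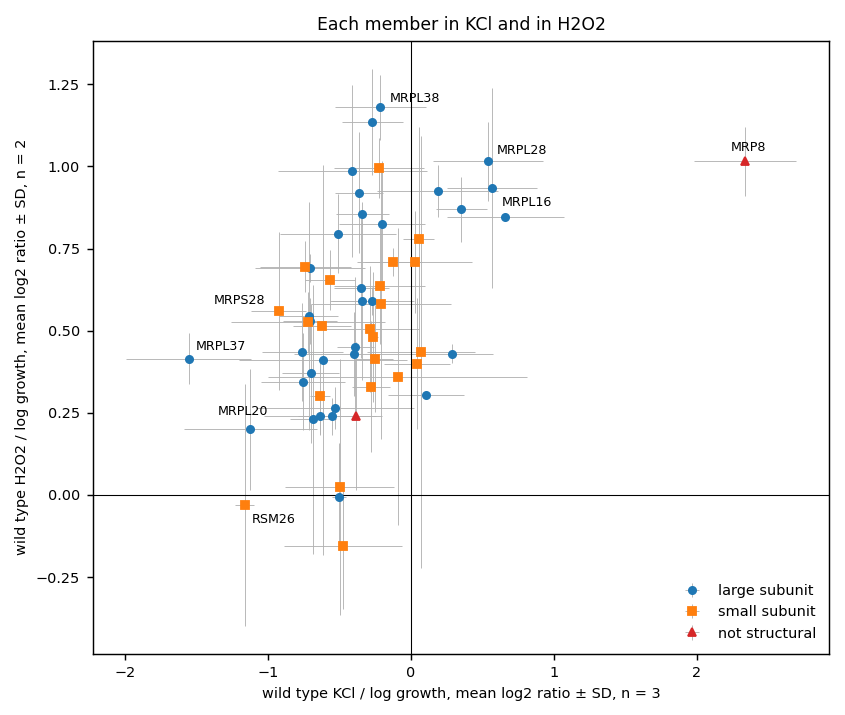
Mean log2 ratio over log growth of each member in wild type, in KCl (x axis, 3 arrays) and in H2O2 (y axis, 2 arrays), with bars of 1 SD. The upper left corner, negative in KCl and positive in H2O2, holds 42 members, and MRP8 lies far to the right of the structural members.

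Heat and rapamycin in wild type rest on 1 array each, without a replicate check or test, and a 2-fold change is used there as a mark of size. On the heat array 15 members were at least 2-fold down and 1, MRP8, was at least 2-fold up, where 18.3% of all genes were down and 15.9% up that far. The member median was -0.58. MRPL37 was again lowest at -2.38, followed by MRPL15 at -1.83 and by RSM22 and RSM26 at -1.56 each, while the highest were MRP8 at 2.06, RSM10 at 0.59 and MRPL28 at 0.10. MRPL15 is a large subunit protein of the mitochondrial kind and RSM10 a small subunit protein with a bacterial counterpart.

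On the rapamycin array, where the TORC1 kinase was inhibited, all 57 members were positive with a median of 1.15, and 32 were at least 2-fold up, against 28.2% of all genes. No member was 2-fold down, against 16.9% of all genes. The median of the whole array was 0.38, and 52 members lay above it. This array was deposited with more decimals than most, and whether it was processed like the others is not known. RSM10 (2.39), MRPL32 (2.30), a large subunit protein with a bacterial counterpart, and MRP8 (2.29) were highest. MRP20 (0.19), MRPL20 (0.21) and MRPL4 (0.27) were lowest, and MRP20 and MRPL4 are large subunit proteins near the exit of the peptide tunnel. On the same array the cytosolic ribosomal proteins had a median of -1.49, so both kinds of ribosome stood on opposite sides of 0. This was the highest member median of the 54 arrays as deposited. Relative to the median of its own array it was 0.77, below array 1 of kcs1vip1 in log growth (0.98) and in KCl (0.81).

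In the double mutant kcs1vip1 the member median lay above 0 in log growth and in KCl, with both shifts resting largely on array 1. In log growth 23 members rose and 1 fell, where 37.9% of 5761 genes passed, 18.9% up and 19.0% down, against 40.4% of the members up. The median over the members was 0.55, against -0.01 over all genes tested, and 51 of 57 means were positive. In the large subunit 15 of 33 members rose and 1 fell, and in the small subunit 6 of 22 rose. In KCl 18 members rose and 2 fell relative to wild type in KCl, where 50.3% of 5788 genes passed, 24.8% up and 25.6% down, against 31.6% of the members up, which is near the background. The median was 0.45. The large subunit gave 13 up and 2 down there and the small subunit 5 up.

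RSM28, a small subunit protein of the mitochondrial kind, gave 1.95, 0.43 and 1.06 on the kcs1vip1 log growth arrays (mean 1.15 ± 0.20 SE, adjusted p = 4.23e-05). In KCl it gave 1.60, 1.06 and 0.87 (mean 1.18 ± 0.20, adjusted p = 1.87e-05), the highest member there. MRPL31, a large subunit protein of the mitochondrial kind, gave 2.53, 0.69 and 0.88 in log growth (mean 1.37, adjusted p = 0.0019) and 2.11, 0.98 and 0.20 in KCl (mean 1.10, adjusted p = 0.00784). On both genes array 1 of each condition was the highest, and these 2 arrays share a slide. MRPL24, a large subunit protein with a bacterial counterpart, gave 2.20, 0.17 and 0.89 in log growth and 2.01, 0.59 and 0.55 in KCl. MRPL37 gave 2.26, 0.73 and 0.29 in KCl (mean 1.09, adjusted p = 0.00513). MRPL40, by contrast, was even across the log growth arrays, with 0.91, 0.79 and 0.75 (adjusted p = 0.000511). In KCl the even one was MRP13, a small subunit protein of the mitochondrial kind, with 1.06, 0.72 and 0.83 (adjusted p = 0.000678).

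The other log growth members among the highest were MRPL23 (mean 0.97) and MRPL16 (0.96), both with bacterial counterparts, and in KCl MRPL49 (0.94), MRP17 (0.84), MRPL32 (0.73), MRPL40 (0.72) and MRPL13 (0.60). MRPL28 went the other way: it gave -0.17, -1.54 and -0.59 in log growth (mean -0.77 ± 0.22, adjusted p = 0.00714) and -0.09, -0.58 and -1.27 in KCl (mean -0.65, adjusted p = 0.016). MRPL35 gave -0.50, -0.73 and -0.51 in KCl (mean -0.58 ± 0.16, adjusted p = 0.0033), close together and all below 0. Member medians by array were 0.95, 0.13 and 0.43 in log growth and 0.76, 0.38 and 0.01 in KCl, so array 1 carried much of the shift. Without array 1 the counts were 5 up and 1 down in log growth and 4 up and 4 down in KCl. Without array 2 log growth gave 30 up, and without array 3 KCl gave 26 up and 1 down. Scaling the arrays to the same spread gave 10 calls in KCl.

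The mutant's ratio in KCl was then set against its ratio in log growth. Of the members 2 were lower in KCl and 0 higher, where 27.2% of 5714 genes passed, 13.4% up and 13.8% down, and the median difference was -0.07. One was MRP8, with 0.26, -0.90 and -1.37 in KCl against 1.74, -0.33 and 1.04 in log growth (difference -1.49 ± 0.45 SE, adjusted p = 0.0127), where the arrays of both conditions overlapped. The other was MRP4, a small subunit protein with a bacterial counterpart, with -0.17, -0.07 and -0.06 in KCl against 0.36, 0.63 and 0.43 in log growth (difference -0.57 ± 0.19, adjusted p = 0.0233), which did not overlap. With slide as a fixed block, which ties the KCl and log growth arrays of a slide, 1 member passed, MRP4. On the 2 slides that held both arrays the median difference had opposite signs: -0.14 on slide 3, where 38 members were lower in KCl and 17 higher, and 0.30 on slide 7, where 16 were lower and 41 higher. Scaling the arrays to the same spread left 0 calls, and 1 was left without KCl array 3, log growth array 2 or log growth array 3.

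The KCl response of kcs1vip1 itself was estimated as the wild type KCl ratio plus the mutant's KCl ratio minus its log growth ratio. It was lower for 8 members and higher for 0, where 17.5% of 5689 genes passed, 8.4% up and 9.09% down, with a median of -0.51. RSM26 fell most (-1.37 ± 0.32 SE, adjusted p = 0.00183), followed by MRPL19 (-1.32 ± 0.37, adjusted p = 0.0109) and MRP1 (-1.12 ± 0.26, adjusted p = 0.00177). MRPL19 is a large subunit protein with a bacterial counterpart, and MRP1 a small subunit protein of the mitochondrial kind. The other 5 were MRPS28, MRPL35, MRPL7, MRP4 and RSM22, at -0.71 to -1.08. The array that set kcs1vip1 in KCl directly against kcs1vip1 in log growth had a member median of -0.26, with 3 members at least 2-fold down (13.1% of all genes) and 0 at least 2-fold up (15.4% of all genes). Its lowest members were MRPL35 at -1.17, MRPL44 at -1.15 and MRPL49 at -1.03, and its highest MRP8 at 0.66, MRP49 at 0.44 and MRP20 at 0.41. The estimated response used wild type KCl arrays that also gave the wild type result, and scaling the arrays to the same spread left 0 calls.

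The double mutant was compared in KCl with single mutants, all set against wild type in KCl. It was higher than vip1 for 1 member, RSM28, where 15.9% of 5714 genes passed: 1.60, 1.06 and 0.87 in kcs1vip1 against 0.40, 0.43 and 0.18 in vip1 (difference 0.84 ± 0.28 SE, adjusted p = 0.0398). Against kcs1 0 members passed in limma, 4 at an unadjusted p under 0.05, where 15.3% of 5728 genes passed, and 1 passed without kcs1vip1 array 3. It was higher than arg82 for 5 members and lower for 0, where 11.1% of 5736 genes passed, 6.43% up and 4.65% down. These were MRP13, MRPL3, MRPL13, MRPS28 and RSM7, with differences of 0.61 to 0.85. RSM7, a small subunit protein with a bacterial counterpart, gave 0.05, 0.26 and -0.25 in kcs1vip1 against -0.64, -0.71 and -0.78 in arg82, with no overlap. Scaling to the same spread left 0 calls against vip1 and against arg82, and without array 1 of kcs1vip1 both counts were also 0. Without arg82 array 1 the count against arg82 was 0 as well, and it was 1 without kcs1vip1 array 2, arg82 array 2 or arg82 array 3. The call against vip1 was lost without kcs1vip1 array 2 or any of the vip1 arrays.

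Adding rapamycin to kcs1vip1 in KCl gave lower values for the members. Negative means were found for 55 of 57 members, with a median of -0.40, and 5 fell and 0 rose, where 5.06% of 6052 genes passed, 2.48% up and 2.58% down. MRPL49, a large subunit protein with a bacterial counterpart, gave -0.40, -1.98 and -0.45 (adjusted p = 0.026). MRPL28 gave -0.69, -1.55 and -0.54 (adjusted p = 0.0099), and MRPL25 -0.63, -1.41 and -0.49 (adjusted p = 0.0315). MRPL17, a large subunit protein of the mitochondrial kind, gave -0.37, -1.12 and -0.44 (adjusted p = 0.00943). RSM22 gave -0.34, -0.67 and -0.64 (adjusted p = 0.00965). In the 4 MRPL genes array 2 was far lower than the others, and the member medians by array were -0.29, -0.61 and -0.31. Scaling to the same spread gave 30 members down, while without array 2 the count was 0. The 5.06% above belongs to the unscaled fit, and the share of all genes after scaling is not given here. Rapamycin alone in wild type had the opposite sign on its single array, whose median over all genes was 0.38.

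In H2O2 no member of kcs1vip1 passed against wild type: 0 were called in limma and 4 had an unadjusted p under 0.05, where 5.02% of 5831 genes passed, 3.34% up and 1.68% down, and the median was -0.01. Set against the KCl ratio of the mutant, 6 members were lower in H2O2 and 0 higher, where 27.5% of 5748 genes passed, 13.7% in each direction. RSM28 gave 0.09 and -0.35 in H2O2 against 1.60, 1.06 and 0.87 in KCl (difference -1.31 ± 0.32 SE, adjusted p = 0.00247), with no overlap. MRPL37, MRPL49, MRP17, MRP13 and MRPL13 were the other 5. Both H2O2 arrays are among the 8 in doubt, so neither comparison has a value without them, and without H2O2 array 2 alone 1 member passed against wild type. Scaling to the same spread gave 5 calls against wild type. Leaving out H2O2 array 1 left 2 members lower, leaving out H2O2 array 2 gave 1 higher, and leaving out KCl array 1 gave 2 higher and 1 lower. On the single array of kcs1vip1 in H2O2 against kcs1vip1 in log growth no member changed 2-fold, where 3.65% of all genes were up and 0.489% down that far. Its lowest members were MRPL37 at -0.76, MRPL39 at -0.65 and MRPL33 at -0.58, its highest RSM23 at 0.51, MRP13 at 0.30 and MRPL24 at 0.27, and its median was -0.07. On the array labelled kcs1vip1 heat, also in doubt, the median was -0.82, with 21 members at least 2-fold down and 1 up, where 8.78% of all genes were down and 15.4% up. Its lowest members were MRPS9 at -2.35, RSM22 at -1.90 and MRPL37 at -1.70, and its highest MRP8 at 1.94, RSM18 at 0.62 and MRPL28 at 0.40.

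**Figure D3:**
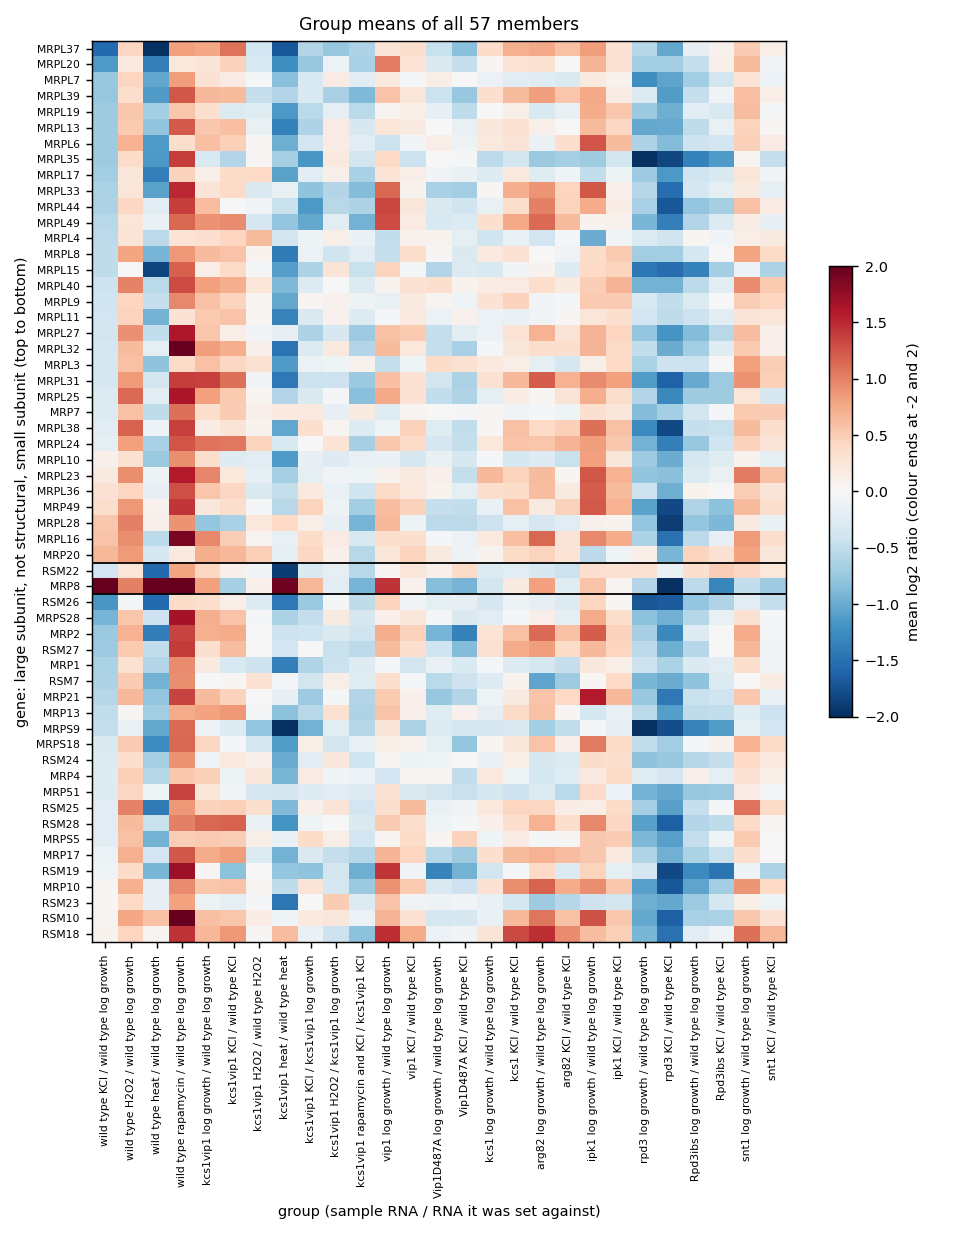
Mean log2 ratio of each member (rows) in each of the 27 groups (columns), ordered within each subunit by the wild type KCl mean, with colours ending at -2 and 2. The rapamycin column of wild type is positive throughout, the rpd3 columns are negative for nearly all members, and MRPL35 is negative in most columns.

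Among the single mutants of inositol phosphate kinases, vip1 in log growth had 7 members up and 0 down of 55 tested, where 19.1% of 5437 genes passed, 9.12% up and 9.97% down. The median was 0.315, against -0.02 over all genes tested. RSM18, a small subunit protein with a bacterial counterpart, gave 1.71 and 1.23 (adjusted p = 0.0413). MRP8 gave 1.61 and 1.28 (adjusted p = 0.0104), and RSM19, also a small subunit protein with a bacterial counterpart, 1.62 and 1.25 (adjusted p = 0.0364). All 3 had both arrays above 1. The other calls were MRPL44, MRPL49, MRPL20 and RSM23, the last related to human DAP3. In KCl vip1 had 1 member up and 0 down, where 9.4% of 5763 genes passed, 4.63% up and 4.77% down. That was RSM25, with 0.80, 0.55 and 0.57 (adjusted p = 0.0422).

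Between the conditions, 1 member of vip1 differed, where 5.68% of 5390 genes passed. MRPL35 gave -0.47, -0.45 and -0.35 in KCl against 0.34 and 0.46 in log growth (difference -0.82 ± 0.25 SE, adjusted p = 0.0492), with no overlap. With slide as a fixed block 3 members passed and with slide as a random block 6, MRPL35 among them both times. Without any 1 array the counts of vip1 were 0 in log growth, in KCl and for the difference. Scaled to the same spread, they were 12, 9 and 6.

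In kcs1 no member passed in log growth (2 at an unadjusted p under 0.05 in limma), where 0.44% of 5912 genes passed, and none in KCl (5 at an unadjusted p under 0.05), where 7.97% of 5756 genes passed, 2.71% up and 5.26% down. The medians were -0.01 and 0.23. By array the members' median in log growth was 0.20 and, on the doubted second array, -0.23, and in KCl it was 0.40 and 0.14. Without the doubted array the log growth count was again 0, and scaling to the same spread gave 2 in log growth and 5 in KCl. In arg82 5 members rose and 3 fell in log growth of 53 tested, where 17.2% of 5190 genes passed, 7.63% up and 9.58% down, and 2 rose and 6 fell in KCl, where 32.0% of 5813 genes passed, 13.9% up and 18.0% down.

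RSM7 gave -1.03 and -1.07 in arg82 log growth (adjusted p = 0.000211) and -0.64, -0.71 and -0.78 in arg82 KCl (adjusted p = 0.00057), with very little spread in either condition. MRPL35 gave -0.83 and -0.65 in log growth (adjusted p = 0.00968) and -0.68, -0.50 and -0.79 in KCl (adjusted p = 0.00248). RSM23 was the third to pass as lower in both. In KCl MRP51, MRP1 and RSM22 fell too, all of the small subunit or linked to it, and MRPL24 and MRP17 rose. The 5 that rose in log growth were RSM18, with 1.58 and 1.37, MRP10, MRPL16, MRPL49 and RSM10. With either log growth array left out 1 call remained, a fall, and with KCl array 2 or 3 left out 3 or 4 remained, all falls.

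In ipk1 15 members rose and 2 fell in log growth, where 24.8% of 5622 genes passed, 12.6% up and 12.3% down, and 9 rose and 0 fell in KCl, where 23.8% of 5753 genes passed, 11.4% up and 12.4% down. MRP21, a small subunit protein with a bacterial counterpart, gave 0.80 and 2.38 in log growth, RSM10 0.45 and 2.10, and MRPL6 0.36 and 2.16. The second of these arrays is among the 8 in doubt and was the extreme one each time. MRPL4 gave -0.54 and -1.45 and MRPL35 -0.21 and -1.20, again with the doubted array farther from 0. In KCl MRPL16 gave 0.36, 1.31 and 0.55 and MRPL40 0.17, 1.32 and 0.56, with the doubted second array the highest. By array the members' medians were 0.33 and, on the doubted second array, 0.70 in log growth. In KCl they were -0.02 and 0.36 on arrays 1 and 3, and 0.57 on the doubted second array. Without the doubted arrays 0 members passed in log growth and 2 in KCl, both down. Without the first array of each the counts were 23 and 17, and scaling to the same spread gave 11 and 4.

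Vip1D487A had 0 members past the threshold in log growth (5 at an unadjusted p under 0.05 in limma), where 0.0359% of 5571 genes passed, and 0 in KCl (14 at an unadjusted p under 0.05), where 2.15% of 5624 genes passed. The medians were -0.17 and -0.29. By array the members' medians were 0.02 and -0.39 in log growth and -0.16 and -0.48 in KCl, and the second array of each is dye-swapped and in doubt. It could not be settled whether their deposited sign had already been turned, so -0.39 and -0.48 may be of the opposite sign. With the sign turned the group medians were 0.17 in log growth and 0.14 in KCl. Without those arrays 0 members passed in log growth and 1, a fall, in KCl, and scaling to the same spread gave 11 and 3.

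Members were low where the histone deacetylase Rpd3 was absent. On the single rpd3 arrays the median was -0.73 in log growth and -1.06 in KCl, the lowest of the 54 arrays. In log growth 55 of 57 members were negative, and 12 were at least 2-fold down with 0 up, where 8.7% of all genes were down and 12.8% up. In KCl all 57 were negative and 34 were at least 2-fold down, where 15.2% of all genes were down and 18.8% up. The lowest in log growth were MRPS9, a small subunit protein with a bacterial counterpart, at -2.12, MRPL35 at -2.06 and RSM26 at -1.71, and in KCl MRP8 at -2.84, MRPL28 at -1.88 and MRPL35 at -1.82. The highest were RSM22 at 0.30, MRP20 at 0.14 and MRP4 at -0.25 in log growth, and RSM22 at -0.13, MRP4 at -0.33 and MRPL4 at -0.40 in KCl. These arrays have no replicate.

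Rpd3ibs, with 2 arrays per condition, had 11 members down and 0 up in log growth, where 20.4% of 5597 genes passed, 10.3% up and 10.1% down. The median was -0.515, and 52 of 57 means were negative. The calls were 5 of the large subunit and 6 of the small. Of the 22 members of the mitochondrial kind all had negative means and 7 fell. MRPL35 gave -1.64 and -1.07 (mean -1.355 ± 0.20 SE, adjusted p = 6.05e-06), MRPL15 -1.51 and -1.20 (adjusted p = 0.000109) and MRPS9 -1.31 and -1.36 (adjusted p = 0.00024). On both arrays all 3 genes lay below -1.

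In KCl 8 members of Rpd3ibs fell and 1 rose, where 31.9% of 5674 genes passed, 15.7% up and 16.2% down, and the median was -0.27. RSM19 gave -1.67 and -1.25 (adjusted p = 0.021), MRP8 -1.42 and -1.18 (adjusted p = 0.0104) and MRPL35 -1.30 and -0.96 (adjusted p = 3.69e-05). MRPS9 gave -1.20 and -1.02. RSM22 was the 1 that rose, with 0.43 and 0.55 (adjusted p = 0.0194). Member medians by array were -0.80 and -0.18 in log growth and -0.52 and -0.12 in KCl, so array 1 was the lower in both. Without array 1 the counts were 3 in log growth and 1 in KCl, all falls, and without array 2 they were 12 and 3, all falls.

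In snt1, which lacks another subunit of a histone deacetylase complex, the members went the other way in log growth. There 5 rose and 0 fell, where 10.3% of 5569 genes passed, 4.81% up and 5.51% down, and the median was 0.48 with 51 of 57 means positive. RSM25 gave 0.99 and 1.19 (adjusted p = 0.00611), MRPL23 1.00 and 1.09 (adjusted p = 0.0212) and MRPL40 1.00 and 0.90 (adjusted p = 0.0063), with like values on both arrays, and MRPL3 and MRPL8 were the other 2. In KCl 0 members passed (6 at an unadjusted p under 0.05 in limma), where 7.87% of 5733 genes passed, 3.3% up and 4.57% down, with a median of 0.105. Without either log growth array 0 members passed, and scaling to the same spread gave 15 in log growth and 5 in KCl.

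For the mutants other than kcs1vip1 and vip1 no member passed the test of the KCl ratio minus the log growth ratio. The members with an unadjusted p under 0.05 in limma numbered 0 in kcs1, 2 in arg82, 2 in ipk1, 0 in snt1 and 1 in Vip1D487A. The share of all genes that passed was 0% in kcs1, snt1 and Vip1D487A, 3.82% in arg82, 0.018% in ipk1 and 6.86% in Rpd3ibs. In snt1 the median difference was -0.345, with 55 of 57 members lower in KCl. All 57 were lower on slide 15 and 46 on slide 13. Members vary together, so these counts and those that follow are a description and not a test. Over all genes the median difference within the slides of snt1, Rpd3ibs, rpd3 and ipk1 lay between -0.03 and 0.04. The share of all genes that was lower is not given here. In Rpd3ibs the median difference within a slide was positive, at 0.24 on slide 14, with 49 members higher in KCl, and 0.16 on slide 15, with 39 higher. On the slide of rpd3 it was -0.41, with 48 members lower. In ipk1 it was -0.40 on slide 3, with 48 members lower, and -0.06 on slide 7, which holds the doubted arrays. Without the doubted KCl array of ipk1 8 of its members passed, 1 higher in KCl and 7 lower, and without log growth array 1 there was 1, while without both doubted arrays there were 0.

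**Figure D4:**
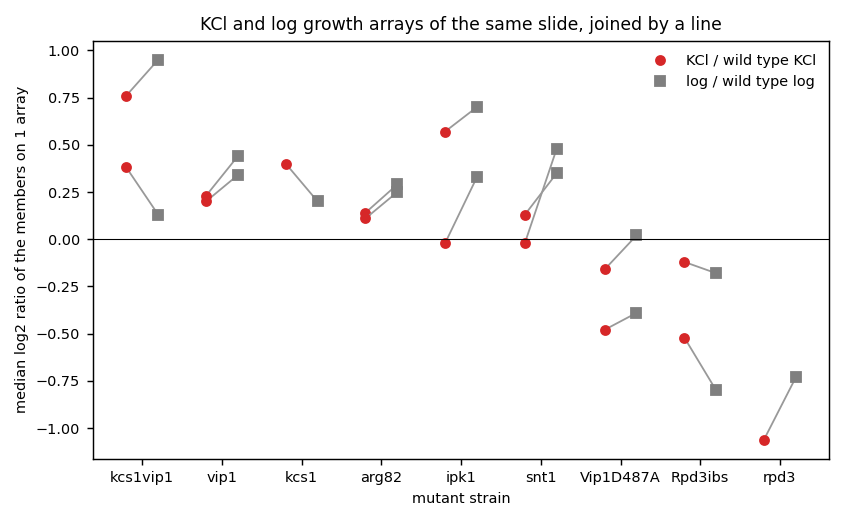
Median log2 ratio of the members on the KCl array (red circles) and on the log growth array (grey squares) of each mutant that shared a slide, joined by a line. In vip1, arg82, ipk1, snt1 and Vip1D487A both slides have the KCl median lower. The ipk1 arrays of slide 7 and the Vip1D487A arrays of slide 16 are among those in doubt. In Rpd3ibs both slides have the KCl median higher, and in kcs1vip1 the slides disagree.

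Members varied together over the 54 arrays. As a description, the median Pearson correlation between pairs of members was 0.61 over 1596 pairs, 0.64 within the large and 0.57 within the small subunit, against 0.01 over all pairs of genes on every array. Some other lists of related genes were alike: 0.63 for cytosolic ribosomal proteins, 0.53 for mitochondrial aminoacyl-tRNA synthetases and 0.50 for oxidative phosphorylation. Protein import genes (0.14) and translational activators (0.21) were much lower. Over the 46 arrays without those in doubt the members had 0.65 and the cytosolic ribosomal proteins 0.65. Arrays of a group share their design and arrays of a slide share that slide, so these are not independent points. Each member's correlation with the mean of the others had a median of 0.79 and was over 0.5 for 51 of 57. MRPL31 followed the others most closely (0.94), and MRPL4 (0.15), MRP20 (0.32), MRP8 (0.33), RSM23 (0.41) and RSM22 (0.41) least. Without the arrays in doubt the median was 0.83, with 53 over 0.5, and the lowest were MRPL4 (0.29), RSM22 (0.37), MRP8 (0.38), MRP4 (0.41) and RSM23 (0.51), so MRP20 was no longer among them. The large subunit median lay above the small subunit median on 38 arrays and below on 16, with a median distance of 0.09 and at most 0.24. Without the arrays in doubt these counts were 33 and 13.

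The SD over the 20 group means of groups with 2 or 3 arrays had a median of 0.45 over the members and 0.49 over 5602 genes. It was highest for MRP8 (0.92), MRPL31 (0.73), RSM19 (0.71), MRP2 (0.69) and MRPL37 (0.65), and lowest for MRP1 (0.27) and MRP7 (0.28), with MRP4, MRPL11 and RSM24 next. Over the 15 groups that keep 2 or 3 arrays without those in doubt, the medians were 0.45 over the members and 0.51 over 5617 genes. MRP8 (1.01), MRPL31 (0.75) and RSM19 (0.72) were again highest, followed by MRP10 and MRPL49 (0.68 each), and MRPL10 (0.24), MRPL36 (0.25) and MRP1 (0.28) lowest, followed by MRPL4 and MRP4 (0.29 each). RSM27 and MRP2, both of the small subunit, were called in none of the 20 groups. That need not mean little change: MRP2 gave 1.12 and 1.13 in arg82 log growth (SE 0.49, adjusted p = 0.106 in limma). Its spread, shared by all tests, took in the doubted Vip1D487A arrays, at -2.12 and -2.60 against 0.25 and -0.11 on their replicates. Their part in the missing calls was not tested.

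MRPL35, a large subunit protein of the mitochondrial kind, was called down in 7 of the 20 groups and up in 0. These were wild type in KCl, kcs1vip1 in KCl, arg82, ipk1 and Rpd3ibs in log growth, and arg82 and Rpd3ibs in KCl. Over the 14 groups without an array in doubt it was called down in 6 and up in 0. It was negative on 43 of 54 arrays, or 38 of 46 without those in doubt, and its highest value was 1.39, on the wild type rapamycin array. MRPS9 was negative on 45 of the 54 arrays and MRPL10 on 40, or 40 and 34 of the 46. MRPL28 was called up in 2 groups, wild type in KCl and in H2O2, and down in 5, all without an array in doubt. MRPL16 was called up in 6 groups, or 4 without those that hold an array in doubt. MRP8 ran from -2.84 in rpd3 KCl to 2.68 in wild type KCl.

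Some structural genes of the mitochondrial ribosome have other names. Of 13 such genes 7 were named on the array, and their median over arrays correlated with that of the members at 0.87, with opposite signs on 8 of 54 arrays (0.91 and 7 of 46 without those in doubt). In wild type KCl 2 of the 7 fell, IMG1 (-1.15) and RML2 (-0.78), and 1 rose, VAR1, which is encoded in the mitochondrial genome and gave 0.38 and 1.66 on the 2 arrays that measured it. IMG2 (-0.39), MHR1 (-0.34), NAM9 (-0.10) and PET123 (-0.06) did not pass. The shares of all genes were 31.3% down and 29.6% up. In H2O2 1 of 6 rose, MHR1 (1.255), where 22.0% of all genes rose. In kcs1vip1 4 of 6 rose in log growth and 3 of 6 in KCl, with 0 down, where 18.9% and 24.8% of all genes rose.

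The other mitochondrial lists were compared with the members by their counts and medians, without a test of the difference. For these lists and the cytosolic one below, 29.6% of all genes rose and 31.3% fell in wild type KCl. In H2O2 22% rose and 21.4% fell. In kcs1vip1 18.9% rose and 19% fell in log growth, and 24.8% rose and 25.6% fell in KCl. Of 33 nuclear-encoded oxidative phosphorylation genes 14 rose and 2 fell in wild type KCl (median 0.48), the highest being SDH4 (2.64) and RIP1 (2.39) and the 2 falls ATP20 (-1.07) and CYC1 (-0.61). In H2O2 0 rose and 7 fell (median -0.28), in kcs1vip1 log growth 0 rose and 15 fell (-0.64), and in kcs1vip1 KCl 0 rose and 20 fell (-0.93). In each of these 4 comparisons their median had the opposite sign to that of the members. It had the same sign on the rpd3 arrays (-0.87 in log growth and -1.08 in KCl) and on all Rpd3ibs arrays (-0.29 to -0.60). The same held on the wild type rapamycin array (1.03), so the member shifts there were shared by this list. Over all 54 arrays the medians of both lists correlated at 0.24, with opposite signs on 27 arrays (0.18 and 24 of 46 without those in doubt).

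Of 11 mitochondrial aminoacyl-tRNA synthetases 4 rose in wild type KCl, led by MST1 (0.74) and MSK1 (0.69), and 9 rose and 1 fell in H2O2 (median 0.86). In kcs1vip1 6 rose in log growth, and 1 rose and 3 fell in KCl. Of 13 protein import genes 7 fell and 0 rose in wild type KCl (median -0.50), among them TIM23 (-2.04), a channel of the inner membrane, and MGE1 (-1.39), a chaperone partner, while 3 rose in H2O2. Of 13 translational activators 7 rose in wild type KCl, led by PET122 (1.29) and ATP22 (1.20), 1 rose and 3 fell in H2O2, and in kcs1vip1 4 rose in log growth and 5 rose and 1 fell in KCl. In kcs1vip1 1 import gene rose and 2 fell in log growth, and 1 rose and 3 fell in KCl.

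Of 7 mitochondrial translation factors 2 rose, FMT1 (1.07) and MEF2 (0.59), and 1 fell, MEF1 (-0.38), in wild type KCl. In H2O2 and in kcs1vip1 log growth 3 rose and 1 fell, and in kcs1vip1 KCl 1 rose and 4 fell. Of 5 ribosome assembly genes MTG1 (0.83) and MRM2 (0.61) rose and 3 fell in wild type KCl, the lowest MSS116 (-1.14) and MRM1 (-1.04), while 2 rose in H2O2, 1 rose in kcs1vip1 log growth and 1 fell in kcs1vip1 KCl. Of the 2 mitochondrial transcription genes RPO41 (0.70), the RNA polymerase, rose and MTF1 (-1.06), its partner, fell in wild type KCl. In H2O2 1 of these fell, and 0 passed in kcs1vip1. Of 6 regulators of these pathways 3 rose and 1 fell in wild type KCl, with HAP2 (1.31) and SFP1 (0.83) highest and HAP4 (-1.57) the fall. In H2O2 1 rose and 3 fell, in kcs1vip1 log growth 0 passed, and in kcs1vip1 KCl 1 rose and 4 fell.

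Of 130 cytosolic ribosomal proteins 1 rose, RPL15B (1.15), and 43 fell in wild type KCl, with RPL7B (-4.94) and RPL22B (-3.98) lowest. In H2O2 5 rose and 14 fell (median -0.08), in kcs1vip1 log growth 8 rose and 9 fell (0.10), and in kcs1vip1 KCl 55 rose and 0 fell (0.70). Many of these genes have a near-identical copy, so a probe may report both. Over the 54 arrays their median correlated with that of the members at 0.41, with opposite signs on 17 (0.33 and 15 of 46 without those in doubt).

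**Figure D5:**
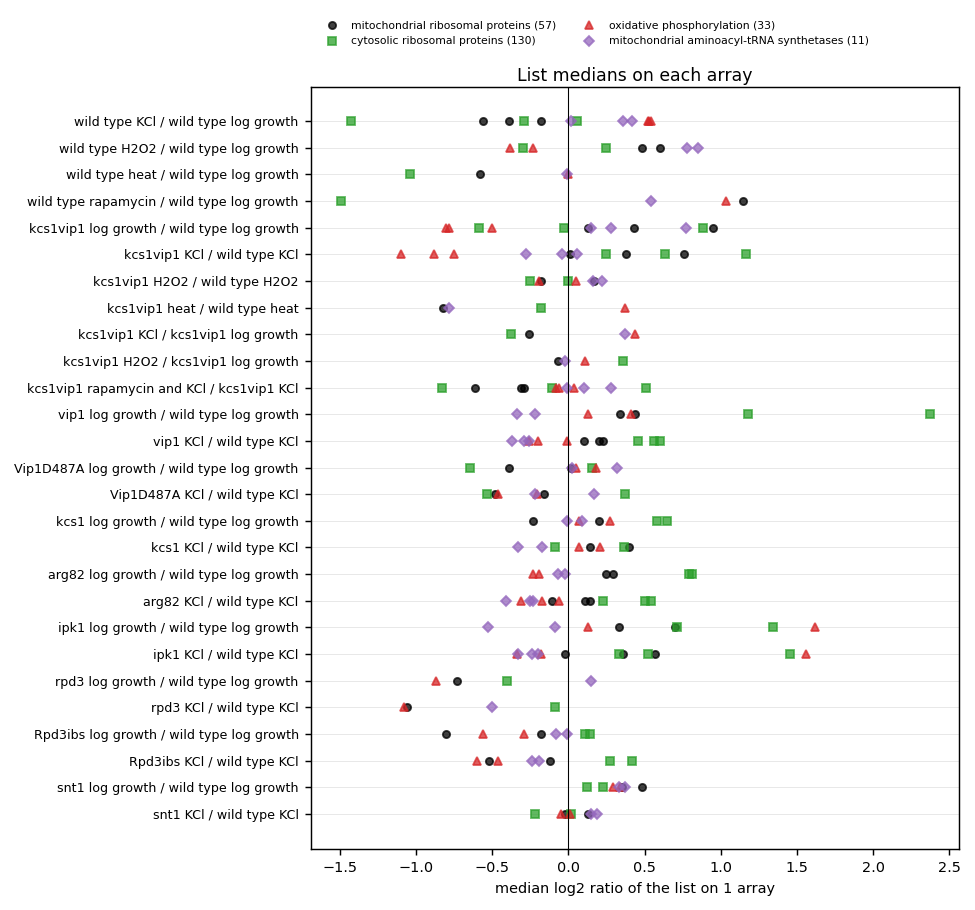
Median log2 ratio of 4 gene lists on each array: mitochondrial ribosomal proteins (black circles), cytosolic ribosomal proteins (green squares), oxidative phosphorylation (red triangles) and mitochondrial aminoacyl-tRNA synthetases (purple diamonds). On the wild type rapamycin array the black circle lies at 1.15 and the green square at -1.49.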

How the data were processed

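Each array held 2 labelled RNAs on yeast gene probes. The authors' deposited table holds 1 log2 ratio per probe and array. The base was read from the signed range. It and the normalization, scaling and centring are not given in the sources used here, and scanner intensities were not used. Each ratio was taken as the labelled sample over the RNA it was set against, and the 3 dye-swapped arrays were kept with the sign as deposited (the wild type KCl one correlated at 0.89 and 0.91 with its replicates). Of 6317 entries 61 control spots were left out. Of 6256 probes 4075 had 1 gene symbol and 2181 had none. Symbols were matched to the RefSeq annotation: 3942 matched directly, 129 through a synonym and 4 were kept. Probes of 1 symbol were averaged. In 3 columns with more decimals 407 exact zeros were set to missing. These were both dye-swapped Vip1D487A arrays and the wild type rapamycin array, and whether they were processed like the others is not known. The rapamycin array had a median of 0.38 over all genes, where the medians of the other arrays lay between -0.09 and 0.05.

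A group-means model was fitted to all 54 assigned arrays with limma 3.58.1 in R 4.3.3 (lmFit, eBayes; 27 residual and 4.63 prior degrees of freedom, prior SD 0.369). Genes entered a test where every group in it had 2 or more values. Benjamini-Hochberg adjustment ran over all genes of that test, with a threshold of 0.05. On simulated ratios with this design, a log2 change of 1 was recovered for 82% of changed genes in wild type KCl and 57% in H2O2. With rapamycin it was 76%, for wild type H2O2 minus KCl 20%, and for kcs1vip1 KCl minus log growth 30%. A change of 0.5 was recovered for 16%, 2%, 22%, 0% and 2%, in the same order. The simulation changed only a small share of the genes, while in the data 60.9% passed in wild type KCl and 43.4% in H2O2. Recovery under this adjustment depends on that share, so these rates may not hold for the data. A member that did not pass may still have changed. Precision is limited by the number of arrays, 2 or 3 per tested group. Alternatives were median centring, scaling to the same spread, exact zeros kept, genes on every array alone, slide as a block, robust moderation, both swapped Vip1D487A arrays with their sign turned, each array left out and, chosen after seeing the data, the 8 arrays in doubt left out. Shares of all genes belong to the main fit, and none is given for the alternatives, so counts under them have no background beside them. Members, gene lists and tests were chosen with earlier results of these data known. Named members were the highest and lowest called with all arrays in 1 direction (10 and 10 in wild type KCl and kcs1vip1 KCl, 5 and 5 or 3 and 3 elsewhere, and 3 and 3 on single arrays), those with the 5 highest and 5 lowest SD over group means, MRP8, RSM22, and 2 and 2 from each other list in wild type KCl. MRPL10, MRPL35, MRPS9 and members named for small counts, low correlation, even arrays or a contrast with another comparison were chosen after their values were seen. Promoter motifs were not analysed here, and the 1 array whose labels disagree entered no comparison.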

Additional observations from a re-analysis of the deposited data

Results flagged for a closer look

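Differences between groups of arrays passed their own test (limma, adjusted p under 0.05) for some members in 6 comparisons. Wild type in H2O2 differed from wild type in KCl for 30 members, 29 of them higher in H2O2. The higher ones were 50.9% of the members, against 18% of all genes tested. In the other comparisons the members' share was below that of all genes. The kcs1vip1 ratio in H2O2 differed from that in KCl for 6 members, all lower in H2O2, with both H2O2 arrays in doubt. This was 10.5% of the members, against 27.5% of all genes tested. In KCl kcs1vip1 differed from arg82 for 5 members, all higher in kcs1vip1 (8.77%, against 11.1% of all genes). It differed from vip1 for 1, RSM28 (1.75%, against 15.9% of all genes). Between KCl and log growth kcs1vip1 differed for 2 members, MRP8 and MRP4 (3.51%, against 27.2% of all genes). For vip1 it was 1, MRPL35 (1.82%, against 5.68% of all genes).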

How the results depend on the processing

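With all arrays scaled to the same spread the counts of called members against 0 became 6 in wild type KCl, 5 in wild type H2O2, 10 in kcs1vip1 KCl, 5 in kcs1vip1 H2O2, 30 with rapamycin, 12 in vip1 log growth, 9 in vip1 KCl, 2 in kcs1 log growth, 5 in kcs1 KCl, 11 in ipk1 log growth, 4 in ipk1 KCl, 15 in snt1 log growth, 5 in snt1 KCl, 11 in Vip1D487A log growth and 3 in Vip1D487A KCl. For differences they became 3 for wild type H2O2 minus KCl, 6 for vip1 KCl minus log growth and 0 for kcs1vip1 KCl minus log growth, its KCl response, and kcs1vip1 minus vip1 or arg82. Median centring gave 0 for vip1 KCl minus log growth and 3 for kcs1vip1 minus arg82, and genes on every array alone gave 0 for kcs1vip1 minus vip1. With slide as a fixed block kcs1vip1 KCl minus log growth gave 1 and vip1 3. With slide as a random block vip1 KCl minus log growth gave 6, kcs1 KCl 1, arg82 log growth 5, snt1 log growth 3, and kcs1vip1 minus vip1, kcs1 and arg82 gave 3, 2 and 8. Without the arrays in doubt ipk1 gave 0 in log growth and 2 in KCl, and Vip1D487A KCl 1.

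Leaving out 1 array in turn gave 16 to 19 in wild type KCl, 2 to 5 in wild type H2O2, 10 to 29 for their difference, 6 to 30 in kcs1vip1 log growth, 8 to 27 in its KCl, 1 to 3 for KCl minus log growth, 6 to 12 for its KCl response, 0 to 1 in its H2O2, 1 to 8 for H2O2 minus KCl and 0 to 4 with rapamycin. It gave 0 to 23 in ipk1 log growth, 1 to 17 in ipk1 KCl, 0 to 8 for their difference, 1 in arg82 log growth, 3 to 6 in arg82 KCl, 3 to 12 in Rpd3ibs log growth and 1 to 3 in Rpd3ibs KCl. For kcs1vip1 minus vip1 and minus kcs1 it gave 0 to 1, and minus arg82 0 to 5. The counts were 0 throughout in vip1 log growth, vip1 KCl, their difference and snt1 log growth. The cause of these shifts was not tested, except that a left-out array leaves fewer samples. By replicate number no paired analysis was possible because those numbers follow accession order and the labels carry none. The pairing of KCl with log growth arrays by slide is the slide block above.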

Other observations

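The array that entered no comparison has kcs1vip1 in KCl as the source of both channels, while its title sets it against kcs1vip1. Its member median was -0.22. It correlated at 0.95 over genes with the array of kcs1vip1 in KCl against kcs1vip1 in log growth.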
